A study of Mus musculus with 46 samples.

Results

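Misfolded proteins of the endoplasmic reticulum (ER) are retrieved, ubiquitinated at the ER membrane, pulled into the cytosol and handed to the proteasome, a route called ER-associated degradation (ERAD). The transcripts of 8 genes of this route and its surroundings were followed here: March6 and Ube2j1, which attach ubiquitin at the ER membrane; Vcp and its cofactor Ubxn2b, which extract the substrate; Rad23b and Usp14, which deliver it to the proteasome and trim its ubiquitin; and Sec61b and Erp44, which serve the entry and the oxidative folding of secretory proteins. The genes were taken by name from a table of 55416 mouse gene identifiers, and all 8 passed the minimum level of 5 CPM, which is a count scaled to the library total. All of them lie in 3 stretches of chromosomes 4, 15 and 18 (GRCm38) in which the identifiers of the table were taken to follow the genes. In these stretches fall 1079 identifiers of the table, 309 of them tested.

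RNA was sequenced from mouse embryonic fibroblasts (MEFs) after 7 h. The groups were 12 libraries of ATF4 KO cells with 600 nM borrelidin, 11 of ATF4 KO cells with vehicle, 12 of wild type cells with borrelidin and 11 of wild type cells with vehicle. Borrelidin inhibits threonyl-tRNA synthetase and was given in DMSO, which served alone as the vehicle. The wild type MEFs were purchased and the ATF4 KO line was made in house by CRISPR/Cas9 editing and cell sorting, so each genotype is a single line, and the loss of ATF4 cannot be told apart from other differences between the lines. The labels number the libraries of a group as biological replicates but do not say whether they came from separate cultures, so p-values measure the spread between these libraries.

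ATF4 is the transcription factor whose translation increases when eIF2α is phosphorylated, as happens when uncharged tRNA accumulates, and it drives amino acid supply and tRNA charging genes. The ER has its own sensors of misfolded protein, which act through ATF6, XBP1 and, by way of PERK, ATF4 as well. The questions were therefore how the 8 genes differed between ATF4 KO and wild type cells under borrelidin and under vehicle, how they responded to borrelidin in each line, and whether the responses differed. The model term called ATF4 activity was coded high in wild type cells with borrelidin and is their difference from wild type cells with vehicle.

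Libraries held 2047362 to 3467765 counts assigned to genes (median 2869299). Of 10 genes abundant in fibroblasts or in all cells, all 10 lay in the stretches, at means of 106 to 6353 CPM, and their summed level was 11541 to 13486 CPM in ATF4 KO with borrelidin, 11954 to 14816 in ATF4 KO with vehicle, 14184 to 15682 in wild type with borrelidin and 11900 to 14799 CPM in wild type with vehicle. Of 16 genes of other cell types, 14 lay there and 12 averaged under 5 CPM, Ccl19, Ccl21a and Cga being at 0, and the sum of the 14 was 108 to 154 CPM, 81.3 to 123 CPM, 76.1 to 127 CPM and 72.3 to 123 CPM in the same groups, most of it from Cd72 (mean 92.3 CPM). Cd72 and Pax5 (mean 6.88 CPM, highest 39.3 CPM), both listed as lymphoid, were the exceptions in this check of the identifiers. The fibroblast genes Col1a1, Col1a2, Vim, Thy1 and Pdgfra and the edited gene Atf4 lie outside the stretches, so neither the cell type nor the knockout was checked on them. Tars, which encodes the threonyl-tRNA synthetase, lies inside: it had 590 to 859 CPM in ATF4 KO with borrelidin, 462 to 690.2 CPM in ATF4 KO with vehicle, 3011 to 3565 CPM in wild type with borrelidin and 719 to 1353 CPM in wild type with vehicle.

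In 14 libraries the scores on the second principal component of the 500 most variable rows of the table (1 row an identifier) were separated from the rest of their group by a gap wider than 50% of the range of the group. They are replicates 1 to 3 of ATF4 KO with borrelidin, 1 to 3 of ATF4 KO with vehicle and 1 to 8 of wild type with vehicle. None is wild type with borrelidin, and the labels name no batch. In each of these groups the side of the gap away from wild type with borrelidin was the one called set apart. In wild type with vehicle that side holds 8 libraries, so the 3 kept are those nearer to the treated cells. The study describes its own second component as separating samples by drug treatment. By the sample numbers in the titles the 14 form unbroken runs apart from the other libraries, but what the numbers stand for is not given. The fold changes below are therefore given over all 46 libraries and over the 32 others, where wild type with vehicle keeps 3 libraries. The 32 were chosen from these same counts, so values over them are not an independent check of the responses. How far the choice itself moves the responses was not tested.

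All but March6, that is 7 of the 8 genes, were lower in the libraries set apart in each of the 3 groups that hold some. Sec61b, the β subunit of the translocon through which proteins enter the ER, averaged 38.3 ± 3.75 CPM in the 3 libraries set apart and 139 ± 33.1 CPM in the 9 others of ATF4 KO with borrelidin (SD). In ATF4 KO with vehicle it averaged 61.1 ± 9.80 CPM in 3 libraries and 175 ± 21.9 CPM in 8. In wild type with vehicle it averaged 85.0 ± 14.5 CPM in 8 libraries and 229.8 ± 16.6 CPM in 3. The 2 kinds of library did not overlap in any of the 3 groups for Ube2j1, Vcp, Rad23b, Sec61b and Erp44, and in 2 of the 3 for Ubxn2b and Usp14. Over all rows tested, 33.8% were lower in the libraries set apart in all 3 groups, and 11.9% were lower without overlap in all 3. On the log2 scale the median difference of the 8 genes was -0.39, -0.57 and -0.62 in the 3 groups, against 0.03, 0.01 and 0.05 over all rows. March6 differed by 0.07, 0.02 and 0.09 and overlapped in every group. These differences are a description, because the same libraries enter the component that chose the sets.

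**Figure D1:**
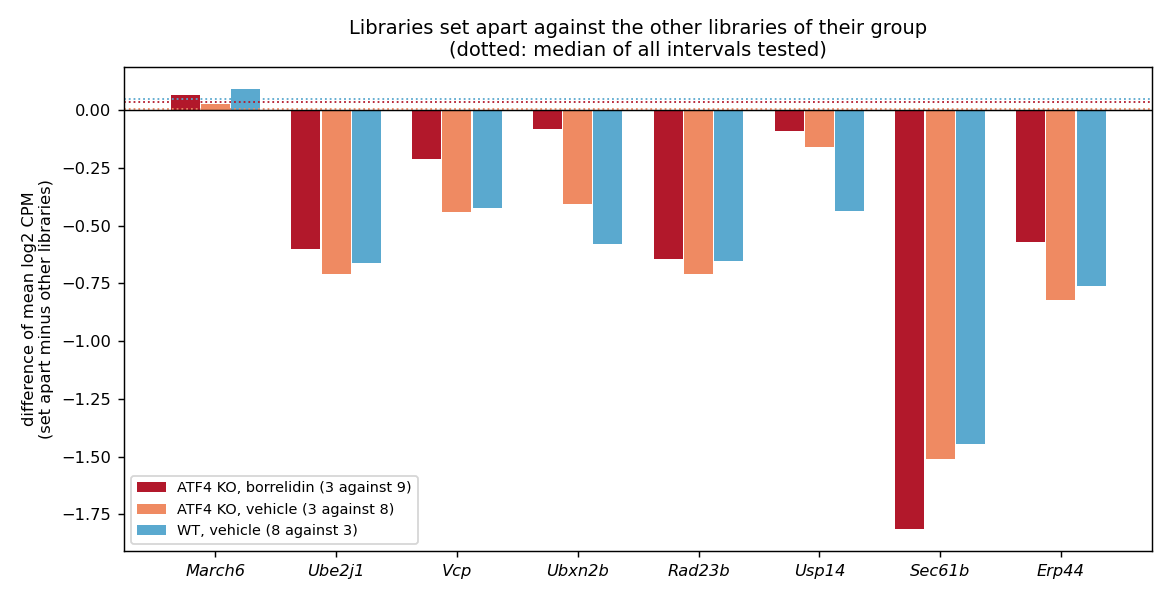
Difference of mean log2 CPM between the libraries set apart and the other libraries of the same group, for each of the 8 genes (bars: ATF4 KO with borrelidin, ATF4 KO with vehicle, wild type with vehicle; dotted lines: median of all rows tested in each group). March6 reaches 0.09 at most and every other bar points down, Sec61b furthest with values of -1.81, -1.51 and -1.44.

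March6 (listed by RefSeq as Marchf6) encodes a ubiquitin ligase that spans the ER membrane and marks ERAD substrates, among them enzymes of sterol synthesis. It lies on the minus strand of chromosome 15 (31455891 to 31531053). Its levels were 265, 297 and 327 CPM (lowest, median, highest) in ATF4 KO with borrelidin and 209, 246 and 276 CPM in ATF4 KO with vehicle. In wild type cells they were 327, 441 and 501 CPM with borrelidin and 276, 322 and 389 CPM with vehicle. Wild type with borrelidin stood highest, and 11 of its 12 libraries were above every ATF4 KO library with borrelidin. The lines overlapped by little under vehicle also, where 10 of the 11 ATF4 KO libraries were below every wild type library.

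March6 was lower in ATF4 KO cells under both treatments and rose with borrelidin in both lines. Between the lines the log2 fold change was -0.54 under borrelidin (SE 0.06, adjusted p = 6.2e-10, edgeR quasi-likelihood test with Benjamini-Hochberg adjustment over 8986 rows) and -0.40 under vehicle (SE 0.07, adjusted p = 3.3e-06). Borrelidin raised it by 0.27 on the log2 scale in ATF4 KO cells (SE 0.07, edgeR adjusted p = 0.0011) and by 0.41 in wild type cells (SE 0.08, adjusted p = 1.9e-05). The response in wild type minus that in ATF4 KO was 0.14 (95% interval -0.04 to 0.32, edgeR adjusted p = 0.23), so the test did not separate the responses, and over the 32 libraries it was 0.23 (adjusted p = 0.31). March6 kept all 4 of its calls over the 32 libraries, where each of the other 7 genes lost at least 1: -0.55, -0.31, 0.25 and 0.48 in the same order (edgeR adjusted p = 3.1e-08, 0.035, 0.011 and 0.0093). In that order 49.9%, 35.2%, 30.6% and 57.2% of all rows were called over all libraries, and 54.3%, 21.1%, 41.8% and 10.8% over the 32. The share of rows that kept every call was not counted. March6 was also the gene that hardly differed between the libraries set apart and the others. The 250 bases before its start in RefSeq (GRCm38.p6, chr15:31531038-31531287, minus strand) are shown because it kept its calls over both sets of libraries. They and the 50 bases after the start hold none of the 5 motifs searched, which are spelled out with the next gene.
March6: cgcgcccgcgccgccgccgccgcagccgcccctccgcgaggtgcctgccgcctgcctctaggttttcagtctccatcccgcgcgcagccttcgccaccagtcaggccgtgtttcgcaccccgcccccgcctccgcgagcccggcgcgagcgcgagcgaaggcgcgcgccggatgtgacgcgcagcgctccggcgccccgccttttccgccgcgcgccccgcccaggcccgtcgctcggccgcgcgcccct

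Ube2j1 encodes an E2 enzyme anchored in the ER membrane that passes ubiquitin to the ligases of ERAD. The gene is on the plus strand of chromosome 4 (33031416 to 33052363). Its levels in ATF4 KO cells were 339, 542 and 582 CPM with borrelidin and 278, 479 and 516 CPM with vehicle. Wild type cells had 368, 404 and 435 CPM with borrelidin and 251, 273 and 427 CPM with vehicle. The libraries set apart made up the low end of each group that held them. Over the 32 others, the 9 ATF4 KO libraries with borrelidin (504 to 582 CPM) were all above the 12 wild type libraries with borrelidin (368 to 435 CPM), and the 8 ATF4 KO libraries with vehicle (459 to 516 CPM) were all above the 3 wild type libraries with vehicle (418 to 427 CPM). The share of all rows whose groups separate in this way was not counted, here or for the genes below.

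Ube2j1 was thus the ERAD gene that was higher in ATF4 KO cells under both treatments. The log2 fold change between the lines was 0.32 under borrelidin (SE 0.11, edgeR adjusted p = 0.012) and 0.48 under vehicle (SE 0.11, edgeR adjusted p = 0.00056), and over the 32 libraries it was 0.46 and 0.22 (edgeR adjusted p = 4.5e-13 and 0.0073). Over the 32 libraries the difference under borrelidin was the one value of the 8 genes past the threshold of 1e-10 that the study used, which 7.40% of rows passed in that comparison. Its response to borrelidin turned on the libraries. The ATF4 KO cells gave 0.21 (edgeR adjusted p = 0.14) over all libraries and 0.16 (edgeR adjusted p = 0.0019) over the 32. The wild type cells gave 0.38 (edgeR adjusted p = 0.0046) over all libraries and -0.08 (adjusted p = 0.57) over the 32. The response in wild type minus that in ATF4 KO was 0.16 (edgeR adjusted p = 0.42) over all libraries and -0.24 (adjusted p = 0.023) over the 32, the opposite direction.

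The promoters of 7 of the 8 genes, all but Ubxn2b, were searched from 250 bases before to 50 after the start, on both strands, for 5 motifs. An unfolded protein response element (UPRE, TGACGTGG), bound by ATF6 and XBP1, was found in Ube2j1 and in Vcp, against 0.676% of 32851 mouse promoters. The ATF4 element (TTGCATCA or TTTCATCA, 1.9% of promoters) and the ER stress element (ERSE) with its second form (ERSE-II), present in 0.119% and 0.0365% of promoters, matched in none of the 7. The NRF element (TGACNNNGC, 12.4% of promoters), named for the factors that drive proteasome genes, matched in Ube2j1, Vcp and Sec61b, and in Ube2j1 and Vcp 1 match overlaps the UPRE. These matches are a description of letters in a window. Both promoters with a UPRE are shown, 250 bases before the start from RefSeq (GRCm38.p6), with the UPRE in capitals. That of Ube2j1 is at chr4:33031130-33031379 on the plus strand, with the UPRE on the opposite strand from base -68. That of Vcp is at chr4:43000508-43000757 on the minus strand, with the UPRE on the same strand from base -114.
Ube2j1: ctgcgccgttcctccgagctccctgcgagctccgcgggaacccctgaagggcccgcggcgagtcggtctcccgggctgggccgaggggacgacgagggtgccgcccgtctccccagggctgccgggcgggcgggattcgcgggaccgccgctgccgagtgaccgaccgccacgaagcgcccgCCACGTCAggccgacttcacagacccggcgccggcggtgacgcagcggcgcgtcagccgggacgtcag
Vcp: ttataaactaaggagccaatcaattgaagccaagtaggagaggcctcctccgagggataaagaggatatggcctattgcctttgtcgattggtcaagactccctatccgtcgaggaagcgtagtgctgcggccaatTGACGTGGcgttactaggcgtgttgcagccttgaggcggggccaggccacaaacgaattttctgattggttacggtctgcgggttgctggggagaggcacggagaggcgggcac

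Vcp encodes the AAA ATPase, also called p97, that pulls ubiquitinated proteins out of the ER membrane. Vcp lies on the minus strand of chromosome 4 (42979963 to 43000507), and 7.26% of its exon bases overlap 1700022I11Rik on the other strand. The strand setting of the counting is not given in the sources used here, so reads of such a pair cannot be assigned with certainty. Levels were 1146, 1384 and 1441 CPM in ATF4 KO with borrelidin and 1229, 1719 and 1824 CPM in ATF4 KO with vehicle. In wild type cells they were 1488, 1554 and 1903 CPM with borrelidin and 1205, 1458 and 1936 CPM with vehicle. All 12 ATF4 KO libraries with borrelidin were below all 12 wild type libraries with borrelidin, a comparison in which 49.9% of all rows were called. Over the 32 libraries, the 9 ATF4 KO libraries with borrelidin (1332 to 1441 CPM) were also below the 8 with vehicle (1675 to 1824 CPM).

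Under borrelidin Vcp was lower in ATF4 KO MEFs than in wild type MEFs, with a log2 fold change of -0.26 (SE 0.07, edgeR adjusted p = 0.0034) over all libraries and -0.19 (adjusted p = 0.00013) over the 32. The call was lost without a filter on low counts (edgeR adjusted p = 0.066) and with library totals as the scaling (adjusted p = 0.15). It fell with borrelidin in ATF4 KO cells by 0.28 (SE 0.08, edgeR adjusted p = 0.0033), and by 0.35 (adjusted p = 5.3e-08) over the 32 libraries. Wild type cells gave 0.08 (edgeR adjusted p = 0.41) over all libraries, -0.21 (adjusted p = 0.17) over the 32 and -0.08 (adjusted p = 0.30) when scaled by library totals, none of them called. The ATF4 level term, in a model with treatment but without genotype, was 0.20 and was called (edgeR adjusted p = 0.0079). That term also takes in the difference between the lines, so it is not the wild type response alone. The difference of the responses was 0.36 (SE 0.11, edgeR adjusted p = 0.0081), and 0.14 (95% interval -0.01 to 0.28, adjusted p = 0.29) over the 32 libraries. Under vehicle the lines differed by 0.11 (edgeR adjusted p = 0.28), and by -0.06 (adjusted p = 0.58) over the 32.

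Ubxn2b encodes p37, an adaptor of VCP known for its part in building the ER and Golgi. The gene is on the plus strand of chromosome 4 (6191098 to 6221688). It had 59.3, 66.3 and 82.9 CPM in ATF4 KO with borrelidin and 47.1, 67.7 and 80.8 CPM in ATF4 KO with vehicle. Wild type cells had 67.0, 85.7 and 135 CPM with borrelidin and 51.3, 63.4 and 97.3 CPM with vehicle. The groups overlapped in every comparison. Under borrelidin it was lower in ATF4 KO MEFs than in wild type MEFs, with a log2 fold change of -0.38 (SE 0.10, edgeR adjusted p = 0.0016) over all libraries and -0.35 (adjusted p = 0.0012) over the 32. The wild type response of 0.39 (SE 0.10, edgeR adjusted p = 0.0017) was -0.02 (adjusted p = 0.95) over the 32 libraries. Its response in ATF4 KO cells was 0.04 (edgeR adjusted p = 0.81) over all libraries and -0.05 (adjusted p = 0.74) over the 32. Under vehicle the lines differed by -0.04 (edgeR adjusted p = 0.80) over all libraries and -0.32 (adjusted p = 0.089) over the 32. The difference of the responses, 0.34, was not called (edgeR adjusted p = 0.064), passed with the replicate number as a block (0.34, adjusted p = 0.032) and was 0.03 (adjusted p = 0.96) over the 32 libraries.

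**Figure D2:**
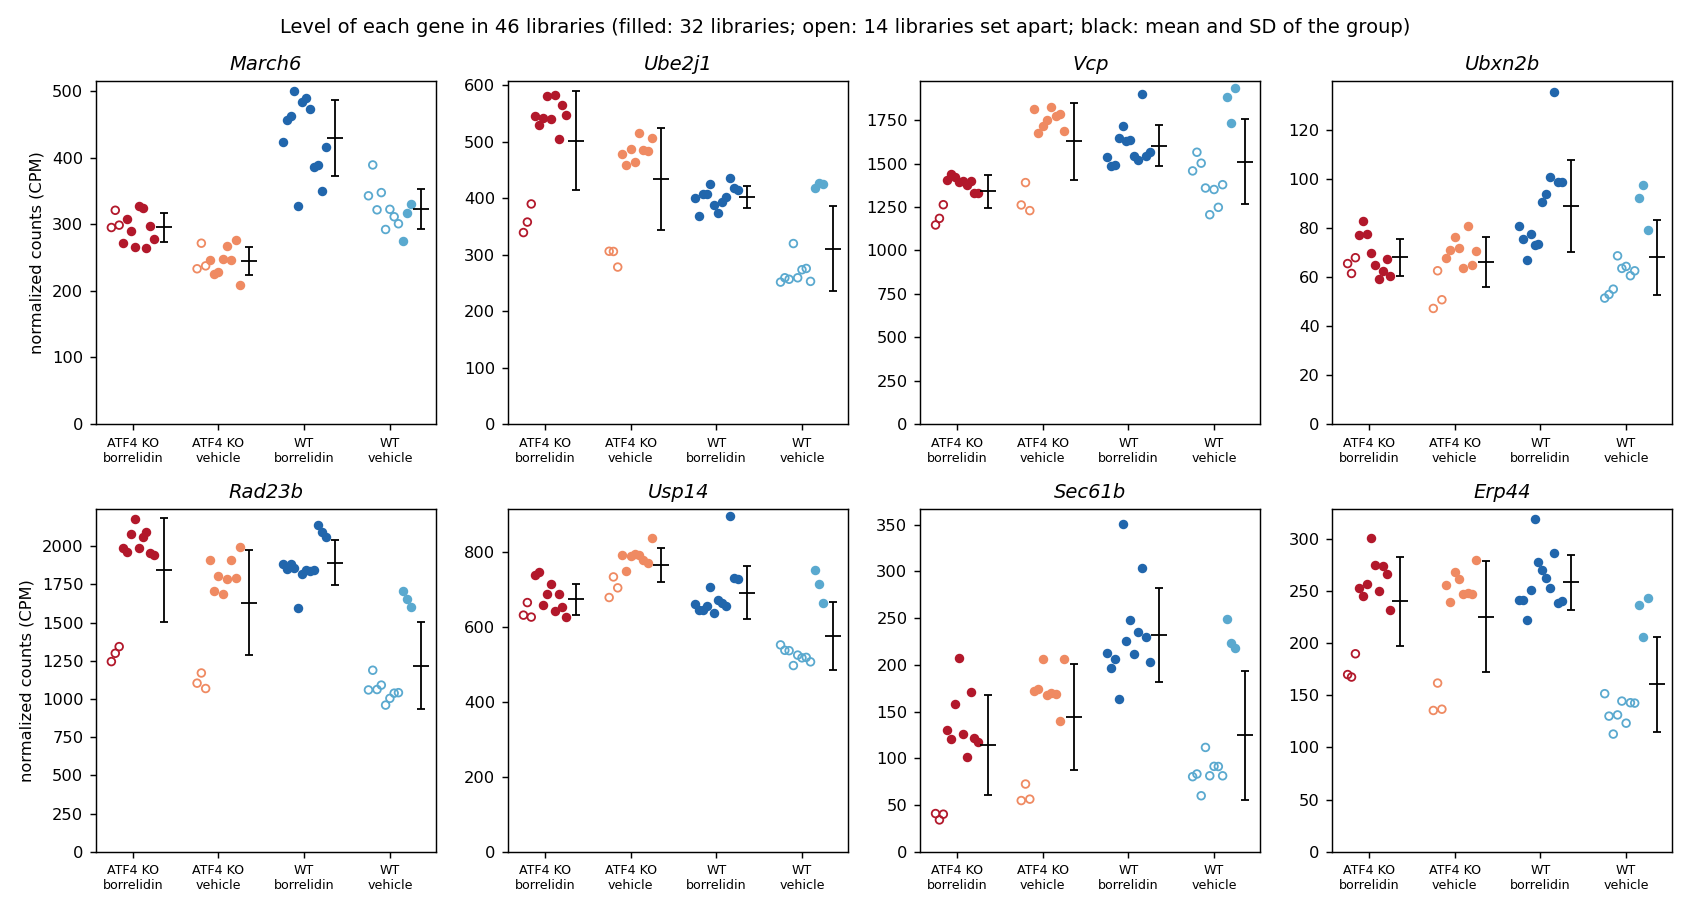
TMM-normalized CPM of each gene in the 46 libraries, by group from left to right: ATF4 KO with borrelidin, ATF4 KO with vehicle, wild type with borrelidin and wild type with vehicle (filled points: 32 libraries; open points: the 14 set apart; black: mean and SD of the whole group). Open points lie below the filled points of their group for Ube2j1, Vcp, Rad23b, Sec61b and Erp44 and among them for March6, and the filled ATF4 KO points of Ube2j1 lie above the filled wild type points under the same treatment.

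Rad23b encodes a shuttle that binds ubiquitin chains at one end and the proteasome at the other, and that also stabilizes the DNA repair factor XPC. It lies on the plus strand of chromosome 4 (55350043 to 55392237). Its levels were 1244, 1973 and 2175 CPM in ATF4 KO with borrelidin and 1068, 1786 and 1998 CPM in ATF4 KO with vehicle. Wild type cells had 1597, 1855 and 2141 CPM with borrelidin and 959.7, 1062 and 1708 CPM with vehicle. With borrelidin, 11 of the 12 wild type libraries were above every wild type library with vehicle. Over all libraries Rad23b rose with borrelidin in wild type cells, by 0.64 on the log2 scale (SE 0.12, edgeR adjusted p = 1.6e-05), but the value over the 32 was 0.19 (95% interval 0.04 to 0.34, adjusted p = 0.12).

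The response of Rad23b in ATF4 KO cells was 0.18 (edgeR adjusted p = 0.24) over all libraries and 0.14 (adjusted p = 0.021) over the 32. The difference of the responses of 0.46 (edgeR adjusted p = 0.024) was 0.05 (95% interval -0.11 to 0.21, adjusted p = 0.78) over the 32. Under vehicle Rad23b was higher in ATF4 KO than in wild type cells by 0.42 (SE 0.12, edgeR adjusted p = 0.0034), and the value over the 32 was 0.16 (adjusted p = 0.096). Under borrelidin the difference was -0.04 (edgeR adjusted p = 0.80) over all libraries and 0.11 (adjusted p = 0.035) over the 32.

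Usp14 encodes a deubiquitinase that sits on the cap of the proteasome and removes ubiquitin from its substrates. Usp14 lies on the minus strand of chromosome 18 (9993066 to 10045119), and 26.0% of its exon bases overlap Thoc1 on the other strand, so part of its counts may belong to that gene. Its levels were 627, 663 and 746 CPM in ATF4 KO with borrelidin and 679, 780.2 and 839 CPM in ATF4 KO with vehicle. In wild type cells it had 638, 662 and 896 CPM with borrelidin and 497, 537 and 754 CPM with vehicle. ATF4 KO with vehicle stood highest by its median. Over the 32 libraries the 9 ATF4 KO libraries with borrelidin (628 to 746 CPM) were all below the 8 with vehicle (750.4 to 839 CPM).

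Usp14 fell with borrelidin in ATF4 KO cells by 0.19 on the log2 scale (SE 0.07, edgeR adjusted p = 0.026), and by 0.22 (adjusted p = 0.0010) over the 32 libraries. With no filter on low counts the same fall of 0.19 missed the threshold (edgeR adjusted p = 0.24). In wild type cells the response was 0.27 (SE 0.07, edgeR adjusted p = 0.0016) over all libraries, -0.04 (adjusted p = 0.81) over the 32 and 0.10 (adjusted p = 0.10) with library totals as the scaling. The responses differed by 0.45 (SE 0.09, edgeR adjusted p = 0.00022), the smallest adjusted p of this comparison among the 8 genes, and by 0.17 (95% interval -0.0022 to 0.35, adjusted p = 0.25) over the 32. Under vehicle it was higher in ATF4 KO than in wild type cells by 0.41 (SE 0.07, edgeR adjusted p = 1.8e-06), against 0.17 (adjusted p = 0.10) over the 32. Under borrelidin the lines differed by -0.04 (95% interval -0.16 to 0.09, edgeR adjusted p = 0.64) over all libraries and by -0.0014 (95% interval -0.10 to 0.09, adjusted p = 0.98) over the 32.

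Sec61b lies on the plus strand of chromosome 4 (47474658 to 47483242) and had the largest standard error of the 8 genes in all 5 comparisons. It had 34.0, 121 and 207 CPM in ATF4 KO with borrelidin and 54.7, 168 and 207 CPM in ATF4 KO with vehicle. Wild type cells had 163, 219 and 351 CPM with borrelidin and 59.9, 91.2 and 249 CPM with vehicle. Under borrelidin 10 of the 12 ATF4 KO libraries were below every wild type library. Under borrelidin Sec61b was lower in ATF4 KO MEFs than in wild type MEFs, with a log2 fold change of -1.03 (SE 0.25, edgeR adjusted p = 0.00065) over all libraries and -0.72 (SE 0.10, adjusted p = 1.9e-07) over the 32.

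The response of Sec61b in wild type cells, 0.90 (SE 0.26, edgeR adjusted p = 0.0030) over all libraries, was 0.01 (95% interval -0.33 to 0.34, adjusted p = 0.99) over the 32. The ATF4 KO cells gave -0.34 (edgeR adjusted p = 0.34) over all libraries and -0.35 (adjusted p = 0.013) over the 32. The difference of the responses was 1.24 (SE 0.36, edgeR adjusted p = 0.0080), the highest value of the 8 genes over all libraries, and 0.35 (adjusted p = 0.27) over the 32. Under vehicle the lines differed by 0.22 (edgeR adjusted p = 0.54) over all libraries and -0.37 (adjusted p = 0.082) over the 32, where the 8 ATF4 KO libraries (139 to 207 CPM) were all below the 3 wild type libraries (218 to 249 CPM).

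Erp44 encodes a thiol protein of the early secretory pathway that binds unfinished proteins and returns them to the ER. It lies on the minus strand of chromosome 4 (48193323 to 48279558). Levels were 167, 252 and 301 CPM in ATF4 KO with borrelidin and 135, 247 and 279 CPM in ATF4 KO with vehicle. In wild type cells they were 222, 252 and 318 CPM with borrelidin and 113, 143 and 243 CPM with vehicle. The medians of the first 3 groups were close to each other, and wild type with vehicle stood below them.

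Erp44 rose with borrelidin in wild type cells by 0.69 (SE 0.13, edgeR adjusted p = 1.4e-05) on the log2 scale over all libraries, but the value over the 32 was 0.17 (95% interval 0.01 to 0.33, adjusted p = 0.19). The response in ATF4 KO cells was 0.09 (edgeR adjusted p = 0.63) over all libraries and 0.02 (adjusted p = 0.83) over the 32. The difference of the responses of 0.60 (SE 0.18, edgeR adjusted p = 0.0082) was 0.15 (adjusted p = 0.37) over the 32. Under vehicle Erp44 was higher in ATF4 KO than in wild type cells by 0.49 (SE 0.13, edgeR adjusted p = 0.0018), and the value over the 32 was 0.18 (adjusted p = 0.11). Under borrelidin the lines differed by -0.11 (edgeR adjusted p = 0.48) over all libraries and by 0.03 (adjusted p = 0.63) over the 32.

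**Figure D3:**
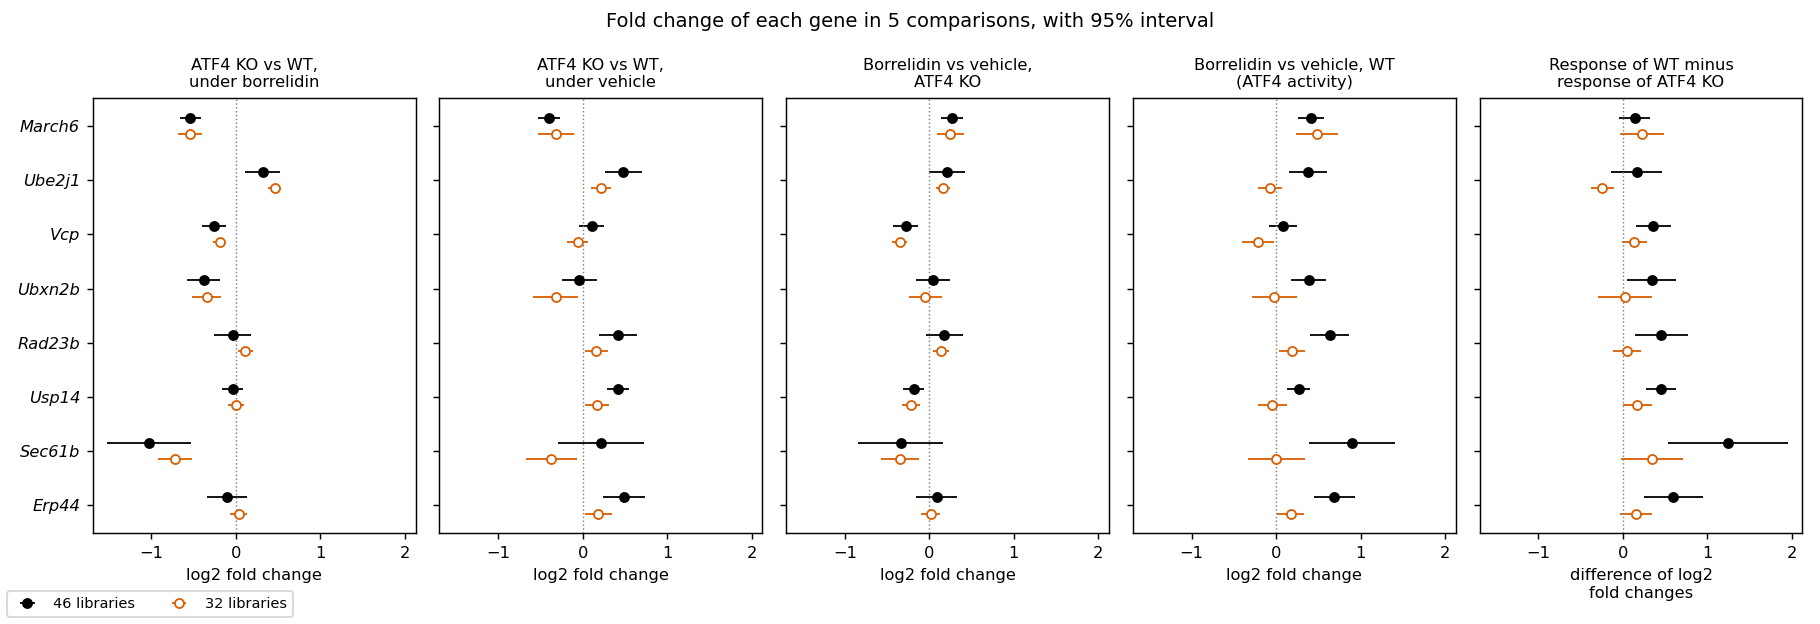
Log2 fold change of each gene in the 5 comparisons, with 95% intervals (filled: all 46 libraries; open: the 32 libraries that were not set apart). In the panel for borrelidin against vehicle in wild type cells the open points of all genes but March6 lie nearer to or below 0, while the panels for borrelidin in ATF4 KO cells and for the lines under borrelidin change less.

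Counted together over all libraries, 7 of the 8 genes rose with borrelidin in wild type cells and none fell, where 57.2% of all 8986 rows were called, 26.5% higher and 30.7% lower. The median of the 8 log2 fold changes was 0.40, against -0.04 over all rows and 0.19 over the 309 rows of the 3 stretches. Without the 14 libraries 1 gene rose and none fell, where 10.8% of 8890 rows were called, 6.14% higher and 4.65% lower, and the median was -0.01 against 0.01 over all rows. With library totals as the scaling, the median of all rows moved by over 0.1 in this comparison, to -0.21. There 5 genes were called, where 1594 of the 8986 rows were called higher and 3741 lower.

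For borrelidin in ATF4 KO cells, 1 gene rose and 2 fell, where 30.6% of all rows were called, 16.8% higher and 13.8% lower. Without the 14 libraries 3 rose (March6, Ube2j1 and Rad23b) and 3 fell (Vcp, Usp14 and Sec61b), where 41.8% were called, 21.7% higher and 20.1% lower. The responses differed between the lines for 5 genes, each higher in wild type than in ATF4 KO cells, where 33.6% of all rows were called, 16.3% higher and 17.4% lower. Without the 14 libraries Ube2j1 alone was called, in the other direction, where 9.90% were called, 6.28% higher and 3.62% lower.

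Between the lines under borrelidin, 1 gene was higher in ATF4 KO cells and 4 were lower, where 49.9% of all rows were called, 25.5% higher and 24.5% lower. Without the 14 libraries 2 were higher and 4 lower, where 54.3% were called, 27.1% higher and 27.2% lower. Under vehicle 4 were higher in ATF4 KO cells and 1 was lower, where 35.2% were called, 17.5% higher and 17.7% lower, and without the 14 libraries 1 was higher and 1 lower, where 21.1% were called, 10.9% higher and 10.3% lower. With the library set fitted as a block in place of leaving libraries out, 3, 6, 2, 6 and 5 genes were called in the 5 comparisons in this order, where 23.7%, 42.6%, 20%, 54.4% and 34.8% of rows were.

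At the threshold of 1e-10 no gene of the 8 was called by edgeR over all libraries when the library set was not in the model, where 1.36%, 0.456%, 0.512%, 5.42% and 2.59% of rows were, while 7, 3, 5, 5 and 5 genes passed 0.05. With the set as a block, March6 (edgeR adjusted p = 2.1e-11) and Ube2j1 (adjusted p = 4.3e-14) passed it between the lines under borrelidin, where 9.17% of rows did. In bulk RNA, fewer cells expressing a gene and less of its RNA per cell cannot be told apart.

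**Figure D4:**
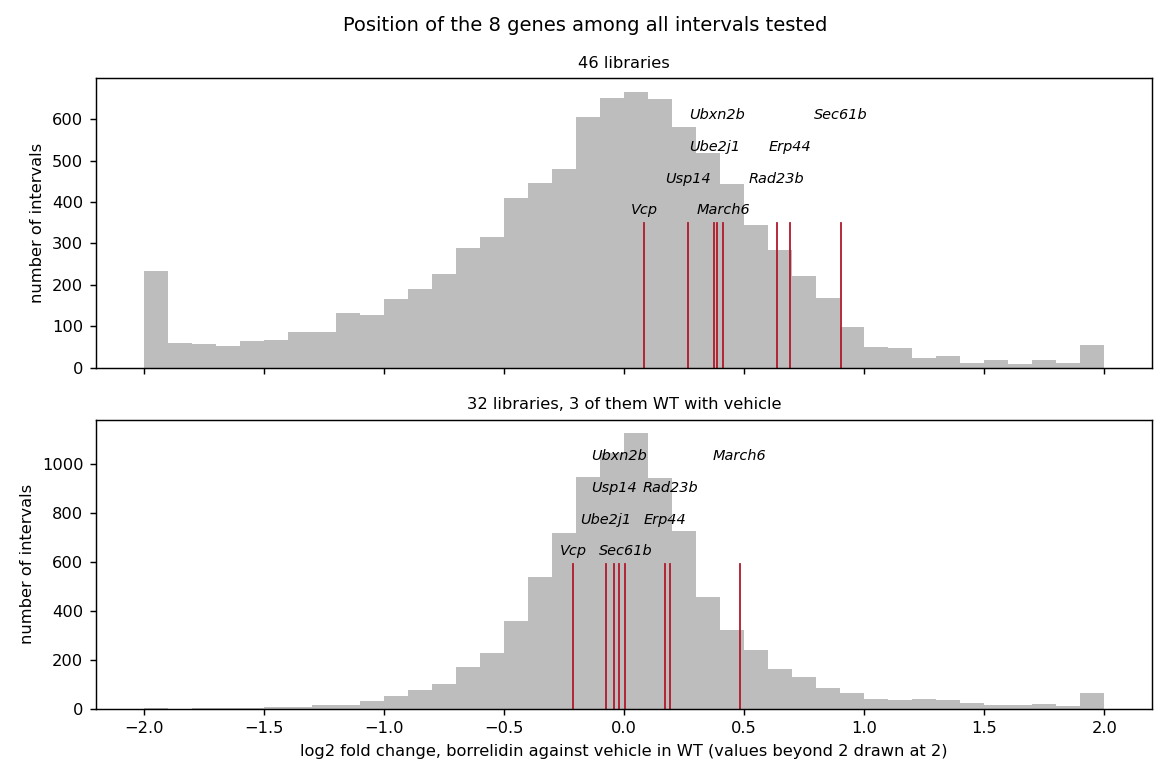
Number of rows by log2 fold change for borrelidin against vehicle in wild type cells, over all 46 libraries (top) and over the 32 libraries that were not set apart (bottom), with the 8 genes marked by red lines. The 8 genes lie between 0.08 and 0.90 at the top and between -0.21 and 0.48 at the bottom, where March6 stands at the right of the others.

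Per kilobase of exon and over all 46 libraries, the most abundant transcripts of the 8 were those of Vcp and Rad23b, with 276 and 322 CPM per kb in ATF4 KO with borrelidin, 336 and 284 CPM per kb in ATF4 KO with vehicle, 330.1 CPM per kb for both in wild type with borrelidin, and 311 and 213 CPM per kb in wild type with vehicle. Sec61b and Ube2j1 followed, between 88.0 and 183 CPM per kb in the 4 groups. Usp14 and Erp44 had 46.9 to 91.8 CPM per kb, March6 26.7 to 46.9 and Ubxn2b 9.94 to 13.4. Among the group means of 1 gene, the order differed from gene to gene: wild type with borrelidin was highest for March6, Ubxn2b, Rad23b, Sec61b and Erp44, and ATF4 KO cells for Ube2j1, Vcp and Usp14. For Ube2j1, Vcp, Rad23b and Erp44 the 2 highest group means lay within 1 SD of each other. Over the 32 libraries the highest group mean changed for 4 genes, and lower ranks moved for Ube2j1, Usp14 and Sec61b as well. ATF4 KO with borrelidin was then highest for Rad23b (2027 CPM, against 1892 CPM in wild type with borrelidin) and Erp44 (261 against 258 CPM). Wild type with vehicle, with its 3 libraries, was highest for Vcp (1851 CPM, next to 1753 CPM in ATF4 KO with vehicle) and Ubxn2b (89.6 CPM, next to 88.7 CPM in wild type with borrelidin).

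Of 254 other genes listed for ERAD, VCP cofactors, the proteasome, the translocon, oxidative folding and the stress responses, 3 lie in the stretches and were tested, and none of them is a core subunit of the proteasome. Akirin2, whose product takes proteasomes into the nucleus, averaged 301 ± 84.4 CPM in ATF4 KO with borrelidin, 208 ± 53.2 CPM in ATF4 KO with vehicle, 248 ± 38.4 CPM in wild type with borrelidin and 142 ± 44.2 CPM in wild type with vehicle (SD, n = 12, 11, 12 and 11). On the log2 scale it rose with borrelidin by 0.53 in ATF4 KO cells (edgeR adjusted p = 0.0038) and by 0.80 in wild type cells (adjusted p = 7.9e-05), and over the 32 libraries the values were 0.51 (adjusted p = 0.0011) and 0.33 (adjusted p = 0.36). Creb3, an ER membrane transcription factor cut free in the Golgi, was higher in ATF4 KO than in wild type cells by 1.11 under borrelidin (edgeR adjusted p = 4.6e-13) and 0.76 under vehicle (adjusted p = 9.2e-08), with 1.28 and 0.66 over the 32 libraries. Creb3 rose by 0.65 with borrelidin in ATF4 KO cells (edgeR adjusted p = 2.6e-06), and in wild type cells the value was 0.31 (adjusted p = 0.058), against 0.66 (adjusted p = 1.8e-11) and 0.05 (adjusted p = 0.90) over the 32. Its response in wild type minus that in ATF4 KO was -0.35 (edgeR adjusted p = 0.061) over all libraries, not called, and -0.62 (adjusted p = 3.1e-05) over the 32.

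Tars, the gene of the enzyme that borrelidin inhibits, rose with borrelidin by 1.81 on the log2 scale in wild type cells (edgeR adjusted p = 5.2e-20) and by 0.34 in ATF4 KO cells (adjusted p = 0.0019), a difference of 1.47 (adjusted p = 2.8e-13). Over the 32 libraries its wild type response was 1.34 (edgeR adjusted p = 2.0e-12) and the difference 1.02 (adjusted p = 3.8e-13), with 0.32 (adjusted p = 1.5e-07) in ATF4 KO cells. Its wild type call was kept there, where 6 of the 7 genes called for this response lost theirs and wild type with vehicle has 3 libraries. Over all rows the share called for this response went from 57.2% to 10.8%, so a lost call was common. With the set fitted as a block, March6 (0.45), Rad23b (0.18) and Erp44 (0.21) stayed called among the 7 (edgeR adjusted p = 9.1e-05, 0.028 and 0.025).

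The genes whose levels followed each of the 8 most closely were sought among 250 protein-coding genes of the stretches, by Pearson r of log2 CPM over the 46 libraries, which share treatment, line and library set. March6 was most like Klf4 (r = 0.862), Ube2j1 like Ubap1 (r = 0.955) and Ubxn2b like Zfp706 (r = 0.811). Rad23b was most like Rngtt (r = 0.911), Usp14 like Rab18 (r = 0.814), Sec61b like Tomm5 (r = 0.946) and Erp44 like Smu1 (r = 0.935). The closest to Vcp was 1700022I11Rik (r = 0.934), the gene that overlaps it on the other strand. Within group and library set these values were between 0.227 for March6 and 0.770 for Vcp.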

How the data were processed

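RNA-seq libraries of MEFs of 2 genotypes with borrelidin or vehicle (46 libraries, 4 groups) were analysed. The authors aligned the reads by HISAT2 and deposited them as raw counts, not normalized, 1 column a library. HTSeq and mm10 stand in the submitters' processing notes and feature counts in the study's methods. For versions, the strand setting and the annotation, the sources used here give nothing. GENCODE M21 (GRCm38) holds 52135 of the 55416 identifiers and lacks 3281, and levels follow gene names only in some chromosome stretches. Genes were therefore used from chromosome 4 (5.64 to 55.53 Mb), 15 (9.07 to 37.01 Mb) and 18 (4.63 to 10.56 Mb). Other rows entered the fits unnamed. The 5 closing rows, among them 69.0% of reads in no feature and 10.8% not aligned, were left out.

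Rows that passed filterByExpr (8986) were fitted in R 4.3.3 with edgeR 4.0.16 (TMM, quasi-likelihood test, Benjamini-Hochberg over all rows, call under 0.05, with 1e-10 beside it). ATF4 activity was fitted with genotype, after the study's model, and contrasts of 4 group means gave the rest. Levels are TMM-normalized CPM, and intervals are 95%. Alternatives used DESeq2 1.42.0, limma 3.58.1, other scalings and filters, the replicate block and the library sets. The ATF4 level model coded wild type as 1 with vehicle and 7 with borrelidin, and held treatment but no genotype term. Its value is the level term over that step, which also takes in the difference between the lines. The test was checked on simulated counts, which held no library sets, so the check does not cover their effect on the calls. Tables and figures were made in Python 3.11.15.

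Promoters came from RefSeq (GRCm38.p6), 300 bases each, and matched 7 of the 8 genes. The source held no promoter of Ubxn2b, so it was not searched. That of Usp14 was searched, but its sequence is not printed. The genes, 11 pathway lists (262 genes) and the naming rule, under which all 8 genes, each listed gene tested in the stretches and the 1 most similar gene are named, were chosen with earlier results of these data known. No 2 libraries of a group were as alike as sampling noise allows (chi-square at least 1.89 per degree of freedom). Libraries are numbered alike across groups in the labels. Between ATF4 KO with borrelidin and with vehicle, deviations from the group means correlated above 0.1 in all 11 same-numbered pairs (r 0.185 to 0.782), but in 2 of the 8 pairs without the libraries set apart. Wild type borrelidin and vehicle had 2 such pairs of 11, the lines 3 of 12 under borrelidin and 5 of 10 under vehicle.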

Additional observations from a re-analysis of the deposited data

Results flagged for a closer look

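In 5 of the 8 genes the response to borrelidin in wild type cells differed from that in ATF4 KO cells by the edgeR test of the difference itself over all 46 libraries. In the same test 33.6% of all 8986 rows were called, 16.3% higher and 17.4% lower. The difference on the log2 scale was 1.24 for Sec61b, 0.60 for Erp44, 0.46 for Rad23b, 0.45 for Usp14 and 0.36 for Vcp. Over the 32 libraries that were not set apart the same differences were 0.35, 0.15, 0.05, 0.17 and 0.14. None of the 5 was called there, where 9.90% of 8890 rows were. The libraries set apart are 8 of the 11 wild type libraries with vehicle, none of the 12 with borrelidin and 3 in each ATF4 KO group, so the set takes unequal shares of the groups compared. The differences were refitted only without the set and with the set as a block. With the block Usp14 stayed called at 0.30 (edgeR adjusted p = 0.0037) and the other 4 did not. The set was chosen from these same counts, on the side away from wild type with borrelidin. Its part in the differences was not tested apart from that choice. No group was checked for single outlying libraries, because each had more than 10 over all 46. Wild type with vehicle has 3 of the 32, and it was not checked there either. In wild type with borrelidin, replicates 5 and 10 had the fewest counts assigned to genes of all 46 libraries (2309828 and 2047362). They also had the highest shares of reads not aligned. One or the other gave the highest level of that group for each of the 8 genes but March6, whose lowest level came from replicate 5. Their weight in the fits was not tested.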

How the results depend on the processing

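Of 368 fold changes recomputed under 11 settings, 304 kept their direction and their side of the threshold, 26 kept their direction and lost the call, 9 kept it and gained one, and 29 turned direction. Of the 29, 7 also lost a call, 6 gained one, 1 was called both ways and 15 neither way. The median ratio size factors, DESeq2, limma voom, the fit of only the groups compared and the fit of 4 group means changed no call at 0.05. With the replicate block, 6 in place of 5 genes passed for the difference of responses, through Ubxn2b (0.34), and no other call changed. Of all 8986 rows, 1744 were called higher and 1909 lower for that difference with the replicate block. Most of the other changes came with the library set. For borrelidin in wild type cells 7 genes were called, 3 with the set as a block and 1 without the libraries set apart. For borrelidin in ATF4 KO cells 3 were called, 6 with the block and 6 without those libraries. For the difference of responses 5 were called, 2 with the block, 1 without those libraries and 3 with library totals. With library totals, 807 of the 8986 rows were called higher and 2916 lower for it. Under vehicle 5 differed between the lines, and 2 without those libraries. At an adjusted p under 1e-10, 0 genes passed in each of the 5 comparisons with the main edgeR model; between the lines under borrelidin March6 passed with DESeq2 (1.8e-16) and the block (2.1e-11), and Ube2j1 with the block (4.3e-14) and without the libraries set apart (4.5e-13).

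Directions that turned for borrelidin in wild type cells were those of Ube2j1 (-0.072 with the set as a block, -0.076 without the libraries set apart), Vcp (-0.16, -0.21, and -0.079 with library totals), Sec61b (-0.091 with the block), and Ubxn2b (-0.020) and Usp14 (-0.044) without those libraries. The ATF4 level term, which is not the wild type response alone, had the other direction for Ube2j1 (-0.32), Rad23b (-0.014) and Usp14 (-0.013). In ATF4 KO cells the direction of Ubxn2b turned (-0.048 without those libraries). For the difference of responses March6 (-0.074) and Ube2j1 (-0.045) turned with library totals, and Ube2j1 with the block (-0.28) and without those libraries (-0.24). Under borrelidin the difference between the lines turned for Rad23b (0.11 with library totals, 0.10 with the block, 0.11 without those libraries), Usp14 (0.13 and 0.021 in the first 2) and Erp44 (0.056, 0.054 and 0.031). Under vehicle it turned for Vcp (-0.053 with the block, -0.057 without those libraries), Sec61b (-0.49 and -0.37) and Ubxn2b (0.013 with no filter). Of these, Ube2j1 with ATF4 level and treatment, Ube2j1 in both differences of responses with the library set, Rad23b under borrelidin with the library set, Usp14 under borrelidin with library totals and Sec61b under vehicle with the block were called. The cause was not tested. Library totals put the median of all rows at -0.27 for the difference of responses and at 0.20 for the lines under borrelidin.

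Limits: wild type with vehicle rests on 3 libraries once 14 are left out, so missed calls there do not show that a gene did not respond. Those 3 are also the ones nearer to wild type with borrelidin on the component that chose the sets. Ubxn2b had as few as 125 counts and Sec61b 112 in a library, which limits small changes. The 8 genes were named from identifiers in 3 stretches that hold 6.99% of gene counts, and the rest of the pathway was not analysed here.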
